A study of Mus musculus with 12 samples.

Results

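Bone marrow macrophages (BMMs) from ovariectomized (OVX) and sham-operated mice were compared by RNA-seq over all genes. The comparison takes 6 of the 12 libraries of the series, chosen by their labels alone: 3 labelled OVX and 3 labelled sham. The mice were C57BL/6, the labelled age was 8 weeks and the labelled tissue was the limbs, the same in both groups, and no allele or agent other than the operation set the groups apart. According to the methods, marrow cells were grown into macrophages in culture with macrophage colony-stimulating factor, which favours the growth of macrophages from marrow but does not sort them. The labels do not say which libraries came from separate mice or cultures, so every p-value below measures the spread between these samples, which may be technical.

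Macrophages are phagocytes that sense microbes, present antigen, clear dead cells and secrete cytokines. In bone they share a precursor with osteoclasts, the cells that resorb bone, and the loss of estrogen after ovariectomy is a standard model of postmenopausal bone loss. Type I interferon drives a set of antiviral genes in macrophages through STAT and IRF factors, and NF-kB drives most of their inflammatory cytokines and chemokines.

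The libraries held between 17012923 and 42401570 counts, and sham replicates 2 and 3 were the smallest. Ribosomal RNA genes held between 2.56% and 2.78% of the counts in OVX and 3.22%, 5.69% and 5.7% in sham replicates 1, 2 and 3. The 50 most abundant genes held between 22.3% and 23.6% in OVX and between 26.9% and 28.7% in sham. The part of these differences in the results was not tested. The chi-square between the counts of sham replicates 2 and 3, divided by its value under sampling alone, was 2.48 (median over genes) where counts were low and 2.71 where they were high. The other pairs within a group gave 3.93 to 6.46 for low counts and 30.55 to 108.51 for high ones. The counts of sham replicates 2 and 3 were therefore summed and used as 1 sample, so that 3 OVX samples were compared with 2 sham samples. Levels are given as CPM, counts scaled to 1000000 in a library, on library sizes scaled by the trimmed mean of M values. A fold change is OVX against sham on the log2 scale, with its standard error (SE). Unless another test is named, an adjusted p is from the edgeR quasi-likelihood test over all genes tested.

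The cultures carried the transcripts of macrophages in every sample. The 10 macrophage markers summed to between 39900 and 44600 CPM in OVX and to 58100 and 53900 CPM in sham. Lyz2 alone was most of each sum, at 40900, 36600 and 37000 CPM in OVX and at 52500 and 49400 CPM in sham. Per kilobase of exon, the mean level of Lyz2 was 32900 CPM, that of Adgre1, which encodes F4/80, 438 CPM and that of Csf1r, the receptor for the growth factor used, 174 CPM. Transcripts of stromal cells were present as well, with sums that overlapped between the groups. The 12 stromal and fibroblast markers summed to between 7880 and 8550 CPM in OVX and to 8290 and 7760 CPM in sham, and the mean levels per kilobase of Col1a1 and of Acta2 were 306 CPM and 1040 CPM. The 8 smooth muscle and pericyte markers, of which Acta2 is one, summed to between 2480 and 3080 CPM in OVX and to 2020 and 1770 CPM in sham. Other sums did not overlap, though 1 or a few members carried most of each. Osteoblast markers summed to 4930, 3700 and 2790 CPM in OVX and to 2450 and 1230 CPM in sham, of which Spp1, osteopontin, which macrophages also make, was 4890, 3660 and 2750 CPM and 2420 and 1200 CPM. Neutrophil markers, mostly S100a8 and S100a9, ran from 1230 to 1360 CPM in OVX against 839 and 973 CPM, monocyte markers, mostly Fn1, from 3540 to 3650 CPM against 3220 and 2680 CPM, and megakaryocyte markers, mostly Pf4, from 336 to 386 CPM against 263 and 142 CPM. Single members went both ways, since 2 of 7 megakaryocyte markers had a log2 fold change above 0 (median -0.61), and the monocyte marker Ly6c2 fell by 1.19 (SE 0.21, edgeR adjusted p = 0.013), also called with the trends removed (-1.23). The sum of dendritic cell markers, from 209 to 259 CPM in OVX against 411 and 516 CPM in sham, was nearly all Bst2, which interferon also induces, and 2 of the 4 tested had a log2 fold change above 0. The part of these cell types in the results was not tested. Summed markers of T and NK cells, erythroid cells, progenitors and endothelial cells stayed under 30 CPM in each sample. In bulk RNA, fewer cells of a type cannot be told apart from less RNA per cell.

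**Figure D1:**
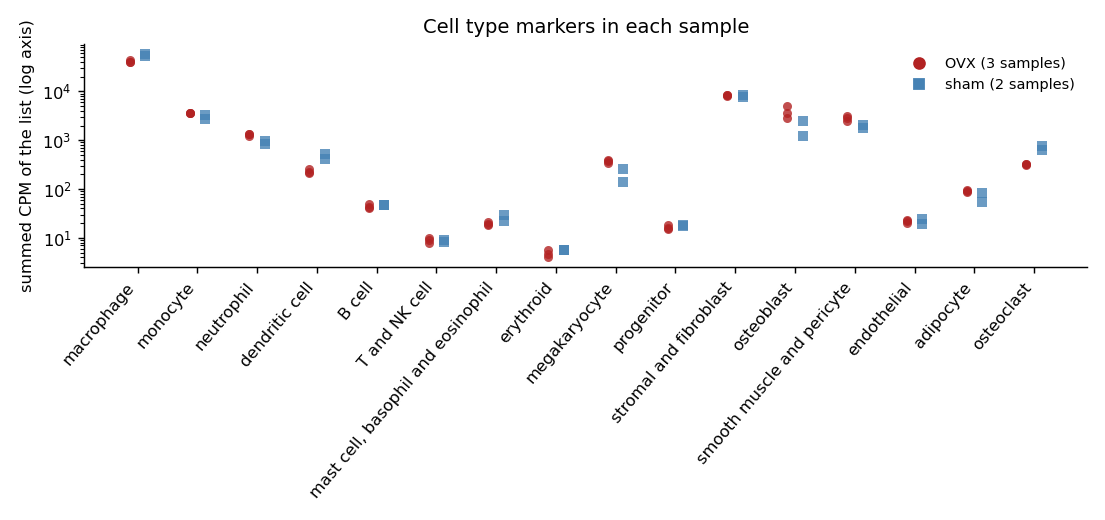
Summed CPM (log axis) of 16 lists of cell type markers, with a circle for each of the 3 OVX samples and a square for each of the 2 sham samples. The macrophage sum, mostly Lyz2, is the highest of all in each sample, and stromal sums overlap between the groups. The osteoclast sum lies between 317 and 325 CPM in OVX against 645 and 777 CPM in sham.

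Of 16768 genes tested, 1419 (8.46%) were called, which means an adjusted p of at most 0.05 and a change of at least 2-fold. Of these, 903 (5.39% of those tested) rose and 516 (3.08%) fell in OVX, which puts 63.6% of the calls on the higher side. The counts of called members given for each list below are to be read against these shares. The samples of the groups did not overlap for any called gene, and they did not overlap for 7934 (47.3%) of all genes tested, 23.9% with OVX higher and 23.4% with OVX lower. At least a 4-fold change was seen in 191 called genes, 109 of them higher and 82 lower. Protein-coding genes made up most calls, with 852 higher and 474 lower among 13551 tested. Of 982 processed pseudogenes tested, 2 were higher and 8 lower.

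The direction of a call moved with the base composition of the gene. The median GC content was 41.3% in genes called higher, 54.0% in genes called lower and 49.3% in all genes tested, and the median exon length was 6382, 3373 and 3788 bases. In the decile of genes with the lowest GC content, 24.3% were called higher and 0.358% lower. In the decile with the highest, 0.0597% were called higher and 6.27% lower. All 3 OVX samples sloped one way and both sham samples the other, OVX replicate 1 and the summed sham sample most steeply. With smooth trends on GC content and length removed from each sample, 588 genes (3.51%) were called, 219 (1.31%) higher and 369 (2.2%) lower, and the share of higher calls fell to 37.2%. Of these, 439 were also called before, 184 higher and 255 lower. The part of library preparation in these trends was not tested, and a call of a named gene that ended with the trends removed is therefore marked as such.

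Single libraries also moved the number of calls. Without OVX replicate 2, 309 genes were called, without OVX replicate 1, 678, and without sham replicate 1, 2390, while 300 genes were called in all 7 fits that left out a library or the summed sham sample. The fits without sham replicate 1 and without the summed sham sample hold 1 sham sample, which is assumed to vary like the OVX samples, so a call kept there is no check on the spread within sham. Of 150 genes followed through these fits, which are the called genes of the naming rule, the genes the study names and the other genes given here with a test, 78 lost their call without OVX replicate 2, though 74 of them still changed at least 2-fold, with adjusted p between 0.0511 and 0.171 and log2 fold changes within 0.17 of those with all samples. With sham replicates 2 and 3 kept as separate libraries 7.47% of genes were called higher and 4.06% lower, and with a replicate block added 8.82% and 4.6%. A call lost without OVX replicate 2 is therefore not marked below for every gene, even where other losses of that gene are given.

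**Figure D2:**
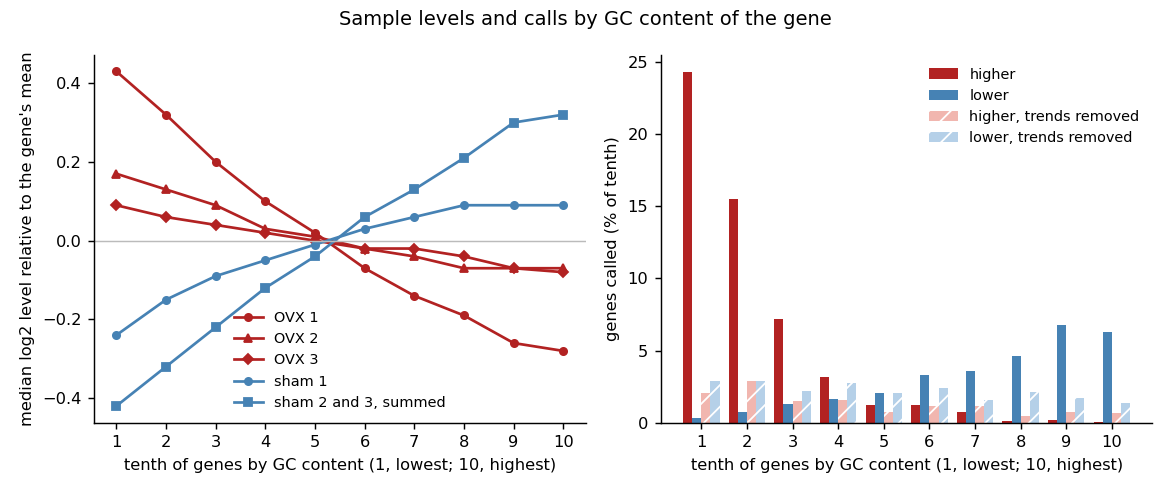
Genes tested, in deciles by GC content from lowest (1) to highest (10). Left, the median log2 level of the genes of a decile relative to each gene's own mean, with a line for each sample, from 0.43 in OVX replicate 1 to -0.42 in the summed sham sample at the lowest GC content. Right, the percentage of each decile called higher (red) or lower (blue) in OVX, before (solid) and after (hatched) removal of the GC and length trends.

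**Figure D3:**
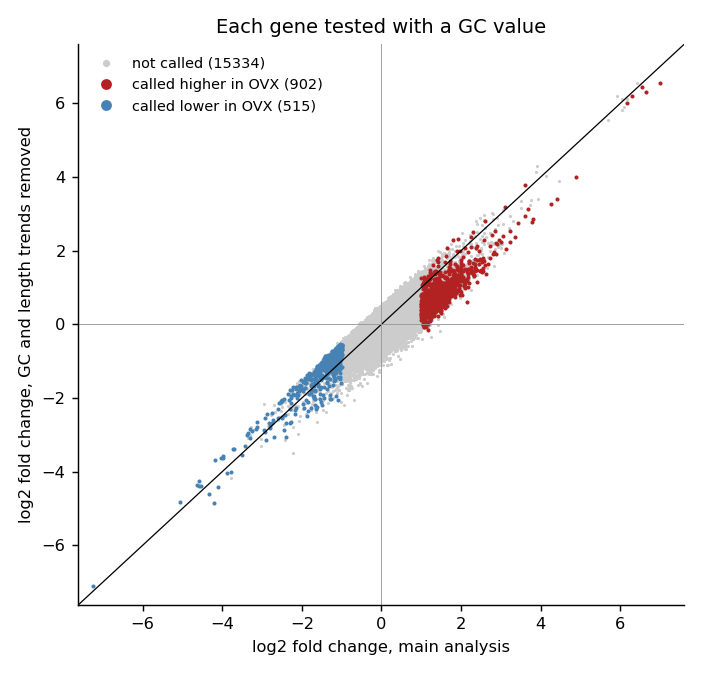
Log2 fold change of each gene tested with a GC value, in the main analysis (x axis) and with the GC and length trends removed (y axis). Grey points are genes not called, red points genes called higher in OVX and blue points genes called lower, all by the main analysis, and the diagonal marks equal values. Of the red points 860 of 902 lie below the diagonal, and 7 called genes change sign.

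Interferon-stimulated genes were the list with the most members lower in OVX. Of 31 interferon-stimulated effectors tested, 21 fell and 0 rose, against 3.08% called lower among all genes, and the median log2 fold change was -1.31, against -0.01 over all genes tested. The list kept its shape with the trends removed, with 20 members called lower, 0 called higher and a median of -1.29. The effectors include enzymes that bind or degrade viral RNA, GTPases and membrane proteins that block viral entry.

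The promoters of effectors are shown because many carry the interferon-stimulated response element, the site bound by the STAT and IRF factors, searched on both strands as GAAA, any 2 bases and GAAA. The sequences are from RefSeq on GRCm38.p6 and show the 150 bases before the start, 5′ to 3′ on the strand of the gene, with each match in capitals and overlapping matches run together. Isg15 encodes a ubiquitin-like modifier, and Oas3 and Oas1a encode oligoadenylate synthetases that sense double-stranded RNA. Oas1a was chosen after its values were seen. The Isg15 window is chr4:156200819-156200968 on the minus strand, the Oas3 window chr5:120777660-120777809 on the minus strand and the Oas1a window chr5:120907526-120907675 on the minus strand.
Isg15: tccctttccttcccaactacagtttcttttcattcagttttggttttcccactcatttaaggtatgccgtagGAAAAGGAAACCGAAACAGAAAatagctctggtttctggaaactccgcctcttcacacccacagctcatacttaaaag
Oas3: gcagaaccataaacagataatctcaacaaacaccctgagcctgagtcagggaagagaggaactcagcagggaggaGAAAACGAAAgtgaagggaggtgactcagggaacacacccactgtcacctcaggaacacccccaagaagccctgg
Oas1a: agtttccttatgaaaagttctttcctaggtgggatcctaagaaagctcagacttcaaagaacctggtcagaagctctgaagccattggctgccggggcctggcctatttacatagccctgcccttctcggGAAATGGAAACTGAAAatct
The 3 matches in Isg15 overlap and begin 78, 72 and 66 bases before the start. The match in Oas3 begins 75 bases before it, and the 2 overlapping matches in Oas1a begin 20 and 14 bases before it.

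A promoter was found by symbol for 11275 of the 16768 genes tested. In the 250 bases before the start, the element was matched in 376 of them (3.33%), in 36 of 392 genes called lower (9.18%) and in 18 of 678 genes called higher (2.65%). Among the effectors it was matched in 11 of the 22 with a promoter, 8 of the 15 that fell and 3 of the 7 that were not called. Outside the lists of interferon effectors and factors, 27 of 375 genes called lower (7.2%) had a match. A match is a run of letters and does not show that a factor was bound.

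Isg15 (chromosome 4, 156199455 to 156200796 in GRCm38) was at 34.4, 23.1 and 25.8 CPM in the OVX samples and at 90.8 and 138 CPM in the sham samples. All OVX samples lay below both sham samples, and the gene changed by -2.04 on the log2 scale (SE 0.25, edgeR adjusted p = 0.00545). Oas3 (chromosome 5, 120753098 to 120777661) held 19.4, 19.8 and 20.1 CPM in OVX and 78.6 and 80.4 CPM in sham, with little spread in either group, and changed by -2.01 (SE 0.16, edgeR adjusted p = 0.00179). The largest fall of the list was that of Oasl1, an antiviral protein related to these synthetases, at 8.98, 9.03 and 8.27 CPM in OVX against 46.3 and 53.8 CPM in sham (-2.51, SE 0.18, edgeR adjusted p = 0.00116). Ifitm3, which restricts the entry of viruses, was the most abundant effector called, with 1070, 1120 and 1030 CPM in OVX and 2440 and 2270 CPM in sham, or -1.13 (SE 0.16, edgeR adjusted p = 0.00798). Its change of -0.95 after trend removal was under the fold limit. Isg15, Oas3 and Oasl1 were called with each library left out in turn and with the trends removed.

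Among sensors and factors of the pathway, 4 of 17 fell and 0 rose, with a median of -0.63. The transcription factor Irf7, which amplifies interferon production, was at 30.1, 40.6 and 43.2 CPM in OVX against 138 and 196 CPM in sham (-2.14, SE 0.23, edgeR adjusted p = 0.00453). Dhx58, a helicase that binds viral RNA, fell by 1.51 (SE 0.18, edgeR adjusted p = 0.00491) and Stat2, which carries the interferon signal to the nucleus, by 1.20 (SE 0.18, edgeR adjusted p = 0.00868). Of 14 interferon-inducible GTPases 2 fell, Igtp and Irgm2, at -1.12 and -1.0. In both of these the lower sham sample was the summed one, and without sham replicate 1 their changes were -0.52 and -0.61 and no longer called. Igtp was called in 3 and Irgm2 in 2 of the 7 fits with a sample left out, and neither was called when any 1 OVX replicate was left out. Igtp was not called with the trends removed either (-1.06, edgeR adjusted p = 0.0625). Of 15 genes of antigen presentation on MHC class I, 5 fell, among them the peptide transporter Tap1 (-1.11) and the immunoproteasome subunit Psmb10 (-1.09), and none of the 15 was called after trend removal. Without the summed sham sample Tap1 was at -0.87 and Psmb10 at -0.95, neither of them called, and Tap1 was not called without OVX replicate 1 (-0.96) either. Of 10 genes of MHC class II, 0 were called by edgeR and 2 had an unadjusted p of 0.05 or less. Cd74, the invariant chain, was at 142, 163 and 158 CPM in OVX and at 225 and 193 CPM in sham (-0.44, SE 0.18, edgeR adjusted p = 0.14).

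**Figure D4:**
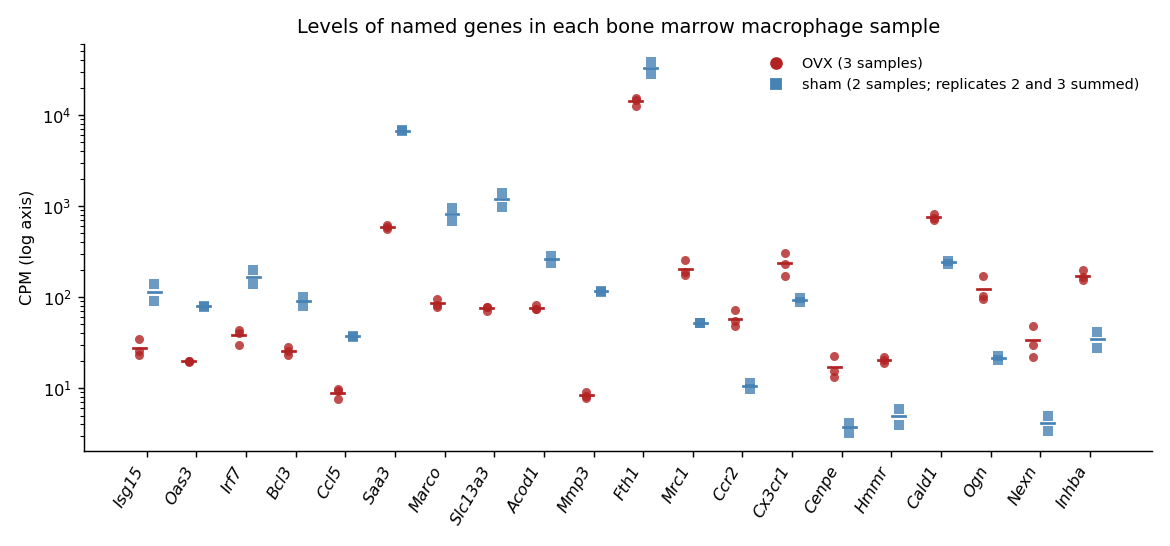
CPM (log axis) of 20 named genes, with a circle for each of the 3 OVX samples, a square for each of the 2 sham samples and a bar at the mean of each group. All 20 are called genes, and the groups do not overlap for any called gene or for 47.3% of all genes tested. The largest fold change among the 20 is that of Slc13a3, with 71.2 to 77.5 CPM in OVX and 973 and 1390 CPM in sham.

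NF-kB feedback and early response genes were also lower. Of 22 tested, 9 fell, against 3.08% of all genes, and 0 rose, with a median of -0.87, and 7 were called lower with the trends removed, against 2.2%. Bcl3, a nuclear partner of NF-kB subunits, was at 23.3, 25.4 and 28.5 CPM in OVX and at 80.5 and 101 CPM in sham (-1.82, SE 0.19, edgeR adjusted p = 0.00397). Sod2, the superoxide dismutase of mitochondria and a target of NF-kB, was at 211, 239 and 246 CPM in OVX against 808 and 630 CPM in sham (-1.63, SE 0.19, edgeR adjusted p = 0.00491). Both genes were called with any single library left out. Socs3, an inhibitor of cytokine signaling, fell by 1.55 (SE 0.22, edgeR adjusted p = 0.00798), though it was not called without OVX replicate 2.

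Chemokines, the secreted proteins that attract leukocytes, fell in 6 of 19 cases and rose in 0, with a median of -1.0, and 11 were called lower with the trends removed. Ccl5, which attracts T cells and monocytes, was at 7.68, 9.70 and 9.29 CPM in OVX and at 36.5 and 37.7 CPM in sham (-2.06, SE 0.19, edgeR adjusted p = 0.00273). Ccl8 was at 7.25, 6.57 and 6.53 CPM in OVX and at 33.3 and 27.0 CPM in sham, or -2.15 (SE 0.20, edgeR adjusted p = 0.00273). Cxcl1, which attracts neutrophils, fell by 1.67 (SE 0.25, edgeR adjusted p = 0.0084) and was not called without OVX replicate 2. Chemokine receptors rose in 3 of 11 cases and fell in 1, with a median of 0.57 over the list that was 0.01 with the trends removed. Ccr2, the receptor by which monocytes leave the marrow, was at 71.4, 55.1 and 47.7 CPM in OVX and at 9.87 and 11.3 CPM in sham (2.45, SE 0.24, edgeR adjusted p = 0.00301). Cxcr4, which holds cells in the marrow, rose by 1.43 (SE 0.25, edgeR adjusted p = 0.0113) and Cx3cr1, the fractalkine receptor, by 1.35 (SE 0.26, edgeR adjusted p = 0.0155), the latter not called without OVX replicate 2. These 3 receptors were also called higher with the trends removed, at 1.63, 1.22 and 1.45. Ackr3, a scavenging receptor for the ligand of Cxcr4, fell by 1.08 (SE 0.28, edgeR adjusted p = 0.0388) and was called in 2 of the 7 fits with a sample left out.

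Cytokines and mediators were mixed, with 4 of 19 lower and 1 higher and a median of -0.53. Nos2, the inducible nitric oxide synthase, was low in all samples, at 0.771, 0.768 and 0.419 CPM in OVX and at 4.11 and 3.89 CPM in sham (-2.61, SE 0.36, edgeR adjusted p = 0.0074). Tnf was at 102, 108 and 115 CPM in OVX against 196 and 298 CPM in sham, or -1.19 (SE 0.21, edgeR adjusted p = 0.013), and it was not called without OVX replicate 1 (-1.14), without OVX replicate 2 (-1.18) or without the summed sham sample (-0.86), nor with the trends removed (-0.97). Il10, an anti-inflammatory cytokine, fell by 1.20 (SE 0.17, edgeR adjusted p = 0.00779) and Tgfb1 by 1.24 (SE 0.21, edgeR adjusted p = 0.0105), with -0.97 and no call for Tgfb1 without sham replicate 1. Il1b was at 31.8, 29.8 and 31.4 CPM in OVX and at 46.0 and 43.4 CPM in sham, a difference that was not called (-0.53, SE 0.17, edgeR adjusted p = 0.0724). Ptgs2, the inducible cyclooxygenase, rose by 1.32 (SE 0.20, edgeR adjusted p = 0.00843), which became 0.56 and was not called with the trends removed. Among genes that supply nitric oxide synthesis, Ass1, which regenerates arginine, fell by 1.60 (SE 0.17, edgeR adjusted p = 0.00453) and Gch1, which makes its cofactor, by 1.36 (SE 0.24, edgeR adjusted p = 0.0128), the latter at -0.98 and not called without sham replicate 1.

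Saa3 (chromosome 7, 46711998 to 46715700), an acute-phase apolipoprotein made by activated macrophages, was at 559, 616 and 594 CPM in OVX and at 6760 and 6690 CPM in sham, and changed by -3.51 (SE 0.17, edgeR adjusted p = 0.00015). The acute-phase and iron-binding genes Hp and Fth1 fell with it. Hp, which binds free hemoglobin, was at 84.1, 103 and 96.8 CPM in OVX against 275 and 452 CPM in sham (-1.94, SE 0.24, edgeR adjusted p = 0.00545). Fth1, the ferritin heavy chain that stores iron, was at 12700, 15300 and 14700 CPM in OVX and at 37700 and 28000 CPM in sham (-1.21, SE 0.19, edgeR adjusted p = 0.00882), and at -0.97 without sham replicate 1. In all, 7 of 16 genes of iron handling fell and 1 rose, and with the trends removed 4 were called lower. The exception was Ireb2, a regulator of iron-dependent translation, at 1.23 (SE 0.23, edgeR adjusted p = 0.0141), and it was at 0.34 and not called with the trends removed.

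Receptors by which macrophages take up particles split by gene. Marco (chromosome 1, 120474538 to 120505024), a scavenger receptor for bacteria and dust, was at 94.9, 82.1 and 78.5 CPM in OVX and at 688 and 941 CPM in sham (-3.26, SE 0.21, edgeR adjusted p = 0.000523). It was the only 1 of 19 scavenger and resident macrophage receptors called, against 8.46% of all genes, and the median of the list was -0.07. Mrc1 (chromosome 2, 14229392 to 14332057), the mannose receptor, went the other way, at 253, 187 and 177 CPM in OVX and at 51.3 CPM in both sham samples (2.0, SE 0.22, edgeR adjusted p = 0.00453). C-type lectins, which bind sugars and of which Mrc1 is one, moved in both directions. Of 14 tested, 5 fell and 2 rose, Mrc1 and Clec5a, and with the trends removed 8 were called lower and Mrc1 alone higher (1.52). The neighbouring genes Cd209f and Cd209g on chromosome 8, relatives of the lectin DC-SIGN, were near 1 CPM in OVX and clearly detected in sham. Cd209f was at 1.17, 1.46 and 1.23 CPM in OVX against 35.8 and 23.6 CPM in sham (-4.52, SE 0.27, edgeR adjusted p = 0.000382), and Cd209g at 0.617, 0.583 and 0.779 CPM against 13.7 and 18.8 CPM (-4.62, SE 0.28, edgeR adjusted p = 0.000398). These are members of 1 gene family, whose reads can be shared between copies. Clec5a and, from the list of pattern recognition receptors, Clec7a, a receptor for fungal glucan, rose by 1.46 (SE 0.31, edgeR adjusted p = 0.0221) and 1.70 (SE 0.34, edgeR adjusted p = 0.0187), and neither was called without OVX replicate 1, without OVX replicate 2 or with the trends removed (0.66 and 0.99). Of 20 pattern recognition receptors tested, 1 rose and 2 fell, Nod1 (-1.16) and Tlr1 (-1.04). With the trends removed 0 were called higher and 1 lower.

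Fc gamma receptors, which bind antibody-coated targets, and their signaling partners fell in 5 of 7 cases and rose in 0, with a median of -1.11. Fcgr4 was at 57.1, 52.5 and 50.6 CPM in OVX and at 195 and 161 CPM in sham (-1.74, SE 0.18, edgeR adjusted p = 0.00376). Fcgr1, the high-affinity receptor, fell by 1.12 (SE 0.17, edgeR adjusted p = 0.00868) and the kinase Syk by 1.27 (SE 0.20, edgeR adjusted p = 0.00956). With the trends removed, 2 of the 7 were called, and Fcgr1 and Syk were just under the fold limit at -0.94 and -0.99. Of 17 complement genes 4 fell and 1 rose, with C3 going from 292 and 375 CPM in sham to 95.6, 107 and 133 CPM in OVX (-1.58, SE 0.21, edgeR adjusted p = 0.0066). Siglece, an inhibitory receptor for sialic acid, fell by 2.19 (SE 0.17, edgeR adjusted p = 0.0016), and Cd274, the checkpoint ligand PD-L1, by 1.70 (SE 0.26, edgeR adjusted p = 0.00868).

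The study describes a shift of macrophages from the alternative (M2) to the inflammatory (M1) state in OVX. By flow cytometry of marrow cells, a protein measure, it reports more macrophages with CD80 and fewer with CD206, the product of Mrc1. By qPCR of BMMs it reports higher Nos2, Il1b, Tnf and Cd80. In the counts used here, the genes it names for the 2 states did not move as 1 group. Nos2 and Tnf, used for the M1 state, fell as above, while Cd80, a costimulatory ligand used for the same state, rose to 18.5, 19.4 and 16.7 CPM from 8.19 and 7.65 CPM (1.20, SE 0.20, edgeR adjusted p = 0.0108). With the trends removed Cd80 was at 0.68 and not called. Of 13 M2 markers, 2 rose, 1 fell and the median was 0.14. Beside Mrc1 the riser was Egr2, at 1.23 (SE 0.25, edgeR adjusted p = 0.0192, and not called without OVX replicate 1 at 1.12), and the faller Il4ra, the receptor for the cytokine that induces the state, at -1.20 (SE 0.19, edgeR adjusted p = 0.00893), and at -0.82 and not called with the trends removed. Adgre1 was at 1270, 922 and 620 CPM in OVX and at 2680 and 1590 CPM in sham (-1.19, SE 0.32, edgeR adjusted p = 0.0467), the widest spread within groups among these genes, and it was not called without sham replicate 1 (-0.76) or without any 1 of the OVX replicates (-1.47, -1.17 and -0.96). Of 20 growth factor receptors and lineage factors of macrophages, 3 fell and 0 rose. Spi1, the lineage factor PU.1, was at 214, 285 and 266 CPM in OVX against 606 and 800 CPM in sham (-1.46, SE 0.21, edgeR adjusted p = 0.00771), and Nr1h3, the sterol sensor LXR alpha, fell by 1.68 (SE 0.21, edgeR adjusted p = 0.00545).

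Osteoclast genes were lower where they were called. Of 20 genes of osteoclast formation and resorption, 4 fell and 0 rose, with a median of -0.60. Mmp9, a collagenase of osteoclasts and macrophages, was at 57.6, 53.4 and 53.0 CPM in OVX and at 186 and 174 CPM in sham (-1.72, SE 0.17, edgeR adjusted p = 0.00301). Ocstamp, needed for the fusion of osteoclast precursors, fell by 1.67 (SE 0.28, edgeR adjusted p = 0.00996), Oscar, a costimulatory receptor of osteoclasts, by 1.65 (SE 0.33, edgeR adjusted p = 0.0184), and Acp5, the tartrate-resistant phosphatase, by 1.22 (SE 0.21, edgeR adjusted p = 0.0123). Oscar was not called without OVX replicate 1 (-1.60), without OVX replicate 2 or without sham replicate 1 (-1.25). The call of Acp5 was lost without OVX replicate 1 (-1.20), without OVX replicate 2, with the trends removed (-0.81) and without the summed sham sample (-0.87). Tnfrsf11a, the receptor RANK, was at 30.7, 27.5 and 25 CPM in OVX and at 45.5 and 50.7 CPM in sham and missed the fold limit (-0.79, SE 0.18, edgeR adjusted p = 0.0267). Tnfrsf11b, the soluble decoy osteoprotegerin that blocks the ligand of RANK, rose to 45.6, 35.7 and 31.2 CPM in OVX from 11.3 and 7.37 CPM in sham (2.01, SE 0.27, edgeR adjusted p = 0.00668). It was called in all 7 fits with a sample left out and with the trends removed (1.51). In bone, osteoprotegerin is known as a product of stromal and osteoblast cells. The summed stromal markers overlapped between the groups, and the osteoblast sum, given above, was nearly all Spp1, which was not called (edgeR adjusted p = 0.0799). All 6 osteoblast markers tested had a log2 fold change above 0, Ibsp alone was called, and Bglap and Bglap2 were too low to test. Their part in this result was not tested.

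Genes of mitochondria and metabolism gave few calls, some of them in the transport of dicarboxylates and the synthesis of itaconate. Slc13a3 (chromosome 2, 165405028 to 165473230), a carrier that brings succinate, itaconate and other dicarboxylates into the cell, fell most of the called genes that averaged 20 CPM or more, at 77.0, 71.2 and 77.5 CPM in OVX and at 973 and 1390 CPM in sham (-3.97, SE 0.21, edgeR adjusted p = 0.000249). Slc25a10, the dicarboxylate carrier of the inner mitochondrial membrane, was at 41.4, 66.8 and 59.4 CPM in OVX and at 155 and 250 CPM in sham (-1.86, SE 0.27, edgeR adjusted p = 0.00798). Acod1, which makes itaconate from a TCA cycle intermediate in activated macrophages, was at 82.6, 74.6 and 73.1 CPM in OVX against 285 and 239 CPM in sham (-1.77, SE 0.18, edgeR adjusted p = 0.0034). All 3 were called with any library left out and with the trends removed, and they were the only members called of 17 in the list, whose median was -0.14.

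Of 15 TCA cycle genes, 0 were called by edgeR, against 8.46% of all genes, with a median of -0.15, and Cs, citrate synthase, was at -0.42 (SE 0.17, edgeR adjusted p = 0.147). The succinate dehydrogenase subunits Sdha, Sdhb, Sdhc and Sdhd were at -0.14, -0.75, -0.46 and -0.11, none of them called. Sdhb, at 137, 169 and 163 CPM in OVX and at 241 and 286 CPM in sham, had an edgeR adjusted p of 0.0349 but missed the fold limit. Tomm20 and Sdhd had spreads within the groups as wide as any difference between them, with Tomm20 at 104, 89.2 and 50.3 CPM in OVX and at 120 and 43.4 CPM in sham. None of 37 nuclear complex I subunits (median -0.30) and none of 34 subunits of complexes III, IV and V (median -0.36) was called by edgeR, with Cox4i1 at -0.59 (SE 0.20, edgeR adjusted p = 0.094) and Atp5b at -0.39 (SE 0.19, edgeR adjusted p = 0.205). At an unadjusted p of at most 0.05, 5 of the TCA cycle genes, 10 of the complex I subunits and 10 of the subunits of the other complexes passed. The outer membrane genes Mfn2 (-0.53, SE 0.18, edgeR adjusted p = 0.0926) and Vdac1 (-0.07, SE 0.19, edgeR adjusted p = 0.846) were not called.

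Transcripts of the mitochondrial genome had a median of 0.95 over 15 genes tested, of which 2 rose and 0 fell. With the trends removed that median was 0.04, and 0 were called higher and 2 lower. Their median GC content was 36.0%, and the share of the mitochondrial mRNAs of the counts was between 0.53% and 0.81% in OVX and between 0.21% and 0.41% in sham. The 2 risers, mt-Cytb (1.25, SE 0.31, edgeR adjusted p = 0.0376, and not called without OVX replicate 1 at 1.08 or without the summed sham sample at 0.86) and mt-Atp6 (1.37, SE 0.24, edgeR adjusted p = 0.0113), were at 0.46 and 0.35 with the trends removed, where neither was called. Of 27 genes of mitochondrial dynamics, import and mitophagy, 1 rose and 1 fell, and neither was called with the trends removed. The faller was Ppargc1b, a coactivator of mitochondrial genes (-1.42, SE 0.36, edgeR adjusted p = 0.0393), called in 3 of the 7 fits with a sample left out. Dnm1l, which drives mitochondrial fission, rose by 1.45 (SE 0.24, edgeR adjusted p = 0.00956) and was at 0.75 after trend removal, under the fold limit.

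In glycolysis 2 of 24 genes fell, against 3.08% of all genes, and 0 rose, with a median of -0.46 that became -0.18 with the trends removed, where 1 was called. Both were hexokinases, which trap glucose in the cell. Hk3 was at 20.8, 23 and 22.3 CPM in OVX and at 94.6 and 87.4 CPM in sham (-2.04, SE 0.17, edgeR adjusted p = 0.00179), and it kept its call after trend removal (-1.64). Hk2 was at 42.8, 33.1 and 40.8 CPM in OVX against 85.4 and 76.5 CPM in sham (-1.06, SE 0.19, edgeR adjusted p = 0.0124) and fell under the limit after trend removal (-0.87), without OVX replicate 2 (-0.94) and without sham replicate 1 (-0.97). Slc2a1, the glucose transporter GLUT1, was not called (-0.48, SE 0.18, edgeR adjusted p = 0.114). Hif1a, the hypoxia factor that drives many of these genes, was at 440, 313 and 266 CPM in OVX and at 174 and 149 CPM in sham (1.07, SE 0.25, edgeR adjusted p = 0.0289), with 0.41 and no call after trend removal and no call without OVX replicate 1 (0.84) or without the summed sham sample (0.96). Of the 19 genes of the HIF-1 list, Hif1a included, 1 rose, 2 fell and 12 had a log2 fold change above 0, with a median of 0.25 that was 0.03 with the trends removed. Hif1a was the riser, and Ndrg1 had the largest change, against the direction of most of the list. It fell to 38.8, 55.7 and 62.7 CPM in OVX from 373 and 441 CPM in sham (-2.96, SE 0.24, edgeR adjusted p = 0.00179).

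Genes that make or clear reactive oxygen species were lower in part. The phagocyte NADPH oxidase assembles at the membrane to make superoxide, and of 8 subunits and relatives 3 fell and 1 rose. Rac2, the GTPase that switches it on, was at 303, 355 and 365 CPM in OVX and at 1190 and 1530 CPM in sham (-2.0, SE 0.19, edgeR adjusted p = 0.00301). It kept its call with the trends removed (-1.75), whereas Ncf4, Cyba and the riser Nox4 did not, and Cyba and Nox4 were called in 4 and 3 of the 7 fits with a sample left out. Of 28 antioxidant enzymes and NRF2 targets 4 fell and 0 rose. Beside Sod2 these included Sod3, the secreted superoxide dismutase, at -1.27 (SE 0.19, edgeR adjusted p = 0.00798), and Hmox1, which degrades heme, at -1.13 (SE 0.19, edgeR adjusted p = 0.0107, and -0.99 without the summed sham sample), which was at -0.84 and not called with the trends removed. None of 30 lysosomal genes was called by edgeR, with a median of -0.36 and 10 at an unadjusted p of at most 0.05, and Ctsd, an abundant protease, was at -0.48 (SE 0.23, edgeR adjusted p = 0.192).

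Genes of mitosis were higher. Of 25 tested, 9 rose and 0 fell, against 5.39% called higher among all genes, all 25 had a log2 fold change above 0, and the median was 0.88. With the trends removed the median was 0.78 and 7 were called higher. Cenpe, a kinesin of the kinetochore, was at 15.4, 13.3 and 22.5 CPM in OVX and at 3.24 and 4.18 CPM in sham (2.20, SE 0.30, edgeR adjusted p = 0.00687). Bub1, a kinase of the spindle checkpoint, was at 12.6, 8.19 and 7.16 CPM in OVX against 2.39 and 1.71 CPM in sham (2.18, SE 0.34, edgeR adjusted p = 0.00882). Hmmr, a spindle protein and hyaluronan receptor, was at 22.1, 18.8 and 20.3 CPM in OVX against 5.94 and 3.92 CPM in sham (2.05, SE 0.25, edgeR adjusted p = 0.0056). Smc2, a condensin subunit that packs mitotic chromosomes and was outside the list, rose by 2.26 (SE 0.25, edgeR adjusted p = 0.00453). The proliferation marker Mki67, named after its values were seen, was at 57.7, 44.7 and 77.8 CPM in OVX and at 14.6 and 15.4 CPM in sham (2.0, SE 0.26, edgeR adjusted p = 0.00637). Of 24 genes of DNA replication, 2 rose, against 5.39% of all genes, and 0 fell, with a median of 0.19. These were Ccne2, a cyclin of S phase entry (1.92, SE 0.31, edgeR adjusted p = 0.00975), and Pola1, a subunit of the polymerase that starts DNA strands (1.73, SE 0.29, edgeR adjusted p = 0.0105). Neither was called without OVX replicate 2, and Ccne2 was not called with the trends removed.

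The promoters of Cenpe, Bub1 and Hmmr, the 3 genes of the mitosis list with the largest changes, are shown because promoters of mitotic genes are known for CCAAT boxes, bound by the factor NF-Y. The 150 bases before the start are given as for the interferon genes, with CCAAT on either strand in capitals, so that a match on the other strand reads ATTGG. The Cenpe window is chr3:135212413-135212562 on the plus strand, the Bub1 window chr2:127831860-127832009 on the minus strand and the Hmmr window chr11:40733438-40733587 on the minus strand.
Cenpe: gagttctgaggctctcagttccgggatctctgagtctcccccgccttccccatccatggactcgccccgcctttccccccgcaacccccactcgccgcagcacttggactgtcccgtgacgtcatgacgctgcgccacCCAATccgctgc
Bub1: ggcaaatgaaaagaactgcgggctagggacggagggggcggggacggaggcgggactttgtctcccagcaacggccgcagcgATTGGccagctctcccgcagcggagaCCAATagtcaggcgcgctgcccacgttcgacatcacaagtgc
Hmmr: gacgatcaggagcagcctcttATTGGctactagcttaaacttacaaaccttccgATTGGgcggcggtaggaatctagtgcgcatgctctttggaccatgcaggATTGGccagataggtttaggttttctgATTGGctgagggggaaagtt
There is 1 match in Cenpe, 2 in Bub1 and 4 in Hmmr. In the 250 bases before the start CCAAT was matched in 18 of the 21 mitotic genes with a promoter (85.7%) and in 13 of 19 replication genes (68.4%), against 4536 of 11275 genes tested (40.2%). Among genes called higher it was matched in 305 of 678 (45.0%). The estrogen response element, searched as GGTCA, any 3 bases and TGACC, was matched in 1 of the 11275 promoters and in 0 of the called genes.

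Receptors for estrogen were at low levels. Esr1 ran from 1.77 to 3.07 CPM in OVX and from 2.13 to 3.77 CPM in sham, so that the groups overlapped, and Esr2 was at or below 0.0617 CPM in every sample. Of 12 receptors and coregulators tested, 0 were called by edgeR, with 3 at an unadjusted p of 0.05 or less.

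Matrix genes of stromal type were higher where they were called. Of 21 genes for collagens and other matrix proteins, 4 rose, against 5.39% of all genes, and 0 fell, with a median of 0.26. Thbs1, thrombospondin, was at 3010, 2530 and 3220 CPM in OVX and at 1130 and 1110 CPM in sham (1.38, SE 0.19, edgeR adjusted p = 0.00712). Postn, periostin, was at 924, 660 and 598 CPM in OVX against 241 and 154 CPM in sham (1.88, SE 0.29, edgeR adjusted p = 0.00868), and after trend removal it was at 0.84 and under the fold limit. The abundant fibrillar collagen Col1a1 was at 1930, 1980 and 2080 CPM in OVX and at 2080 and 1980 CPM in sham. Of 11 small leucine-rich proteoglycans, which bind collagen, 3 rose and 0 fell. With the trends removed 1 was called higher, Ogn, and 1 lower, Dcn (-1.35). Ogn, osteoglycin, was at 170, 104 and 95.9 CPM in OVX and at 22.8 and 20.4 CPM in sham (2.51, SE 0.29, edgeR adjusted p = 0.00491).

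Of 19 contractile and actin-binding genes, 2 rose, against 5.39% of all genes, 0 fell, 18 had a log2 fold change above 0 and the median was 0.53. With the trends removed 4 were called higher, with a median of 0.74. Nexn, an actin-binding protein of muscle, was at 30, 21.8 and 48.6 CPM in OVX and at 3.34 and 4.99 CPM in sham (3.01, SE 0.39, edgeR adjusted p = 0.00593), the largest rise of all genes named. Cald1, caldesmon, was at 730, 711 and 812 CPM in OVX against 232 and 250 CPM in sham (1.64, SE 0.18, edgeR adjusted p = 0.00453). The summed smooth muscle and pericyte markers, given above, were also higher in each OVX sample than in either sham sample, with Acta2, most of the sum, at 2350, 2890 and 2680 CPM in OVX and at 1920 and 1540 CPM in sham. Acta2 was not called (edgeR adjusted p = 0.0729), 5 of the 8 markers had a log2 fold change above 0, and Cspg4 fell by 1.31 (SE 0.32, edgeR adjusted p = 0.0341), called in 2 of the 7 fits with a sample left out and not with the trends removed (-0.92). Their part in these results was not tested.

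Matrix-degrading enzymes went both ways. Mmp3, stromelysin, was at 7.77, 8.21 and 9.08 CPM in OVX and at 116 and 115 CPM in sham (-3.79, SE 0.18, edgeR adjusted p = 0.00015). Adamts1 and Adamts5, proteases of cartilage proteoglycan, rose by 1.30 (SE 0.21, edgeR adjusted p = 0.00923) and 1.15 (SE 0.20, edgeR adjusted p = 0.0111), and neither was called without OVX replicate 2, nor Adamts5 with the trends removed (0.65). Among growth factors and their binding proteins, 3 of 24 rose and 1 fell, against 5.39% and 3.08% of all genes. Fgf7 was at 141, 95.3 and 86.2 CPM in OVX and at 34.0 and 30.9 CPM in sham (1.73, SE 0.26, edgeR adjusted p = 0.00806), and after trend removal it was at 0.82. Bmp4, a bone morphogenetic protein, rose by 1.63 (SE 0.27, edgeR adjusted p = 0.0101) and Igfbp6, which binds insulin-like growth factor, fell by 1.63 (SE 0.21, edgeR adjusted p = 0.00637), both also called with the trends removed. Inhba, the subunit of activin A, was outside the list and among the largest rises, at 154, 166 and 196 CPM in OVX and at 27.9 and 41.8 CPM in sham (2.30, SE 0.25, edgeR adjusted p = 0.0044). Of 23 guidance molecules 2 rose and 2 fell, against 5.39% and 3.08% of all genes, and with the trends removed 1 was called in each direction. Sema4c, a semaphorin, fell by 1.57 (SE 0.22, edgeR adjusted p = 0.00741) and was also called with the trends removed (-1.13). Sema3a, a semaphorin with a role in bone, rose to 14.7, 8.61 and 9.11 CPM from 2.97 and 0.785 CPM (2.52, SE 0.53, edgeR adjusted p = 0.0218), but it was not called with the trends removed, without OVX replicate 1 or without OVX replicate 2.

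**Figure D5:**
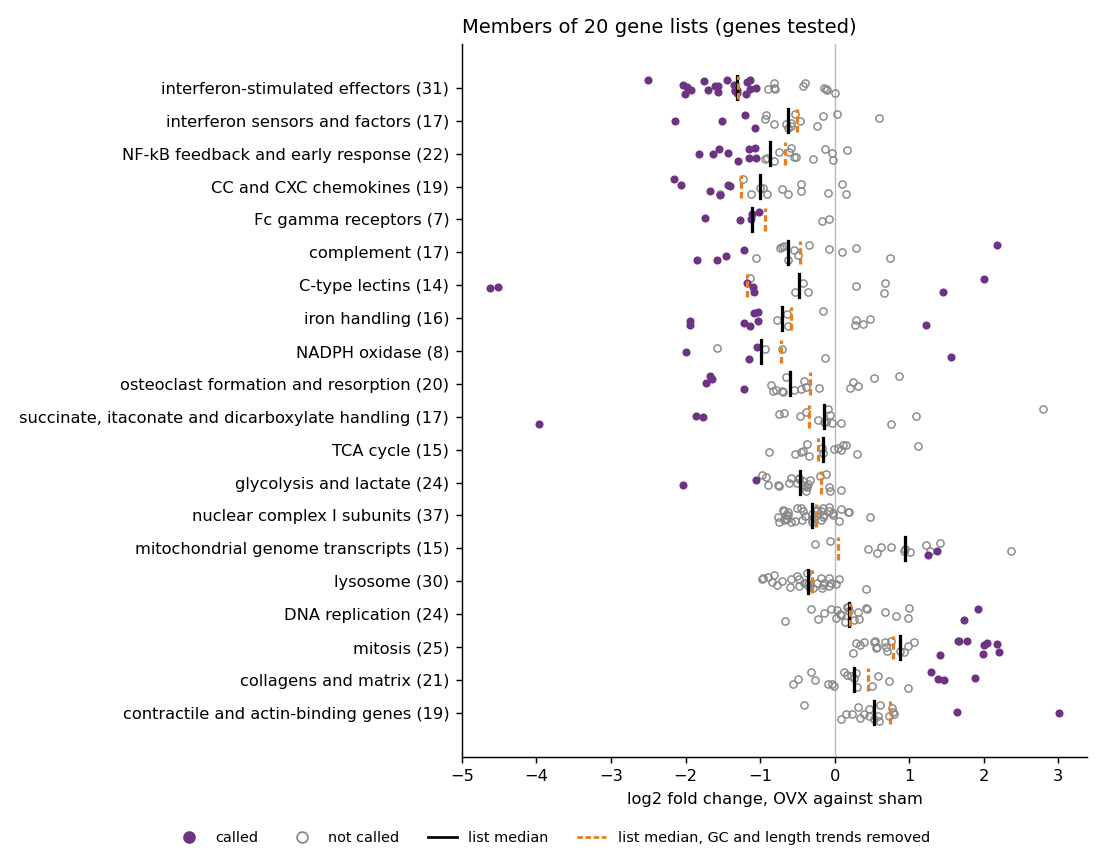
Log2 fold change, OVX against sham, of each gene tested in 20 lists, with the number of genes tested in brackets. Filled points are called genes, open points genes not called, black bars list medians and dashed orange bars the medians with the GC and length trends removed. The interferon-stimulated effectors lie furthest to the left as a list, at a median of -1.31, and the orange bar of the mitochondrial genome transcripts, at 0.04, stands furthest from its black bar, at 0.95.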

How the data were processed

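Of the 12 libraries, the 3 OVX and 3 sham BMM libraries were used here, grouped by their treatment labels. Per the submitters' processing notes and the methods, the authors trimmed reads of poly(A) libraries with Trim Galore 0.6.7, mapped them to GRCm38 with HISAT2 2.1.0 and counted them per gene with featureCounts 2.0.1. The deposited values are raw counts of 55487 genes, with the exon length in base pairs. The methods name a directional library kit and paired-end reads. The setting for strand or read pairs in the counting is not given in the sources used here. Even counts made up between 62.5% and 71.4% of the values from 1 to 20, the cause of which was not tested, and the counts halved were tried as an alternative. GENCODE M21 named 55227 genes and gave GC content for 55141. No row lacked a gene identifier.

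The main test was the quasi-likelihood F-test of edgeR 4.0.16 in R 4.3.3 (two-sided, TMM, filterByExpr, 3 against 2 samples, Benjamini-Hochberg), called at an adjusted p of at most 0.05 and 2-fold. It was tested on simulated data. Trends on GC content and length were removed with a lowess span of 0.3 for each sample. DESeq2 1.42.0 was an alternative. The members and the 47 pathway and 16 marker lists were chosen with earlier results of these data known. Named genes are the 10 largest rises and falls of mean at least 20 CPM without overlap, the 10 most abundant called genes, up to 3 called members of at least 1 CPM in each direction of a list, at most 2 abundant members of lists with none called, genes the study names and, as levels, the defining markers. The other 6 libraries, of another cell type, were not used here.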

Additional observations from a re-analysis of the deposited data

How the results depend on the processing

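Of the 150 genes followed, DESeq2, RLE normalization, halved counts, no filter on low counts and the omission of ribosomal RNA genes changed the call of at most 3 each. Taking out the trends on GC content and length ended 47 calls, and leaving out OVX replicate 2 ended 78, where the fit has fewer samples. The number of genes called was 588 with the trends removed, 812 with the trends removed and sham replicates 2 and 3 kept separate (an alternative chosen after the data were seen), and 2193 on the adjusted p alone. Against 63.6% in the main analysis, 37.2% and 43.5% of the trend-removed calls were higher. Higher calls numbered 219 and 353 in these trend-removed fits, 1391 with a replicate block and 1373 at an unadjusted p with the fold limit. Lower calls numbered 977 on the adjusted p alone. With 1 library or the summed sham sample left out, calls ran from 309 to 2390, higher calls from 184 to 1498 and lower calls from 125 to 892.

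The deviations of same-numbered OVX and sham libraries correlated at 0.52, -0.06 and 0.52 across genes, and not every library correlated best with its own number. OVX replicate 3 correlated at 0.49 with sham replicate 2 and at 0.52 with sham replicate 3, which are near copies. These correlations therefore could not decide whether the replicate numbers pair the libraries. A fit with the replicate block on all 6 libraries called 2117 genes, against 1818 without it. A block on the 2 number series of the library identifiers, chosen after the data were seen, gave 1693.

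Among these 150 genes, signs turned in Cd74, Vdac1, Tomm20, Sdha and Sdhd, which were not called before or after (-0.44, -0.07, -0.01, -0.14 and -0.11 in the main analysis). Vdac1 was at 0.00 with sham replicates 2 and 3 separate, 0.01 with the replicate block, 0.09 after trend removal and 0.14 after trend removal in 6 libraries, where Cd74 was at 0.03. Leaving out samples gave Vdac1 0.12 (no sham replicate 1), 0.01 (no OVX replicate 2) and -0.23 (no summed sham sample). Tomm20 was at 0.24 with separate libraries, 0.35 with the replicate block, 0.28 with the number series block, 0.24 without OVX replicate 3, 0.91 without sham replicate 1, 0.01 without sham replicate 2 -0.57 without the summed sham sample, and 0.00 at a mean CPM of at least 1. Sdhd was at 0.12, 0.20 and 0.17 in the same 3 fits of separate libraries, 0.15 without OVX replicate 3, 0.72 without sham replicate 1, -0.64 without the summed sham sample and 0.16 after trend removal in 6 libraries. Sdha was at 0.08 without sham replicate 1 and at -0.34 without the summed sham sample. The cause was not tested. The shallowest library, sham replicate 2, held 17012923 counts, which limits the precision for genes of low level.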

Other observations

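Heat shock and immediate early genes were higher in 4 of 22 cases and lower in 0, with a median log2 fold change of 0.32, and again 4 were called higher with the GC and length trends removed (median 0.48), Egr2 and Fosb in both analyses, although Fosb (edgeR adjusted p = 0.0494) was called in 2 of the 7 fits with a sample left out and Egr2 in 5. The chaperone Hsp90aa1 was at 186, 243 and 398 CPM in OVX and at 89.2 and 102 CPM in sham (1.52, SE 0.32, edgeR adjusted p = 0.0212), and Hsp90b1, its relative in the list of endoplasmic reticulum stress, at 602, 611 and 700 CPM against 293 and 271 CPM (1.18, SE 0.18, edgeR adjusted p = 0.00876). In that list of 21 genes 1 rose and 1 fell, the latter Sdf2l1, a chaperone cofactor (-1.03, SE 0.22, edgeR adjusted p = 0.0219), called in 3 of the 7 fits with a sample left out and at -0.61 with the trends removed. Hsp90aa1 and Hsp90b1 were not called with the trends removed (1.13 and 0.62). Of 25 genes of lipid uptake, storage and efflux 3 fell and 0 rose. Besides Nr1h3 these were Pltp, which transfers phospholipid between lipoproteins, at -1.43 (SE 0.21, edgeR adjusted p = 0.00798), and Abcg1, a sterol exporter, at -1.10 (SE 0.17, edgeR adjusted p = 0.00885), neither of them called without OVX replicate 2, nor Abcg1 with the trends removed (-0.88). In sterol synthesis 2 of 22 fell, with Mvd at -1.29 (SE 0.21, edgeR adjusted p = 0.00999), and at -0.84 and not called with the trends removed. Of 44 cytosolic ribosomal proteins and 32 mitochondrial ones, 0 were called by edgeR and 3 and 7 had an unadjusted p of 0.05 or less, with medians of -0.10 and -0.26.

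Of 23 genes of apoptosis and survival, 1 rose and 2 fell, against 8.46% of all genes called in either direction. Pmaip1, the p53 target NOXA, was at 32.2, 24.3 and 30.1 CPM in OVX and at 10.5 and 7.03 CPM in sham (1.72, SE 0.25, edgeR adjusted p = 0.00798). Bcl2a1a, a survival protein of myeloid cells with near-identical copies that can share its reads, fell by 1.68 (SE 0.26, edgeR adjusted p = 0.00876), and Pycard, the inflammasome adaptor ASC, by 1.18 (SE 0.21, edgeR adjusted p = 0.0136). Cd52, a surface glycoprotein of leukocytes, was at 673, 702 and 664 CPM in OVX and at 2020 and 2230 CPM in sham (-1.65, SE 0.17, edgeR adjusted p = 0.0034). Ibsp, bone sialoprotein, was low and higher in OVX, at 10.5, 7.44 and 6.83 CPM against 1.70 and 1.06 CPM (2.57, SE 0.34, edgeR adjusted p = 0.00661), and it was the only 1 of 6 osteoblast markers tested that was called.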
